A study of Mus musculus with 4 samples.

Results

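The Hox gene clusters were described in the open chromatin of stem cells of the hair follicle, the CD34-positive bulge cells from which new hairs grow. Their 38 member genes lie in 4 clusters, with 10 members in Hoxa on chromosome 6 (52162417 to 52260880, mm10), 10 in Hoxb on chromosome 11 (96194316 to 96368254), 9 in Hoxc on chromosome 15 (102921131 to 103036856) and 9 in Hoxd on chromosome 2 (74668225 to 74765142). Overlapping peaks of the wild-type and the knockout list were joined into open regions, and a region was assigned to a Hox gene when that gene's body was the nearest protein-coding gene body to the region's midpoint, within 100 kb. This gave 115 Hox regions of 79122 in all, or of 70900 that were assigned to any protein-coding gene.

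The assay was ATAC-seq, where a transposase cuts accessible DNA and leaves adapters at the cut, and the question was which open sites depend on the nuclear factor I proteins NFIB and NFIX. All 4 mice were males at postnatal day 70, in the second telogen, and cells came from back skin. The 2 wild-type mice (WT, numbers 13 and 15) had the genotype NFIBfl/fl;NFIXfl/fl;R26-YFPfl/fl without Cre. The 2 knockout mice (dKO, numbers 14 and 16) had the same alleles with Sox9-CreER, a Cre driven by a promoter that is active in bulge stem cells and in other cells of the follicle. Cells of both genotypes were sorted as DAPI-negative, Sca-1-negative, integrin alpha 6-positive and CD34-positive. The dKO cells were in addition YFP-positive, so the gates differed by this marker. Both genotypes carried floxed alleles. No source used here gives the agent and time of Cre induction, and the excision of the floxed exons was not analysed here.

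Hox genes encode homeodomain transcription factors that give positions along the body axis their identity. Within a cluster they lie in the order of their paralogue number, and genes with low numbers act towards the head while those with high numbers act towards the tail and the tips of the limbs. Silent Hox genes are known targets of Polycomb repression. In skin, Hox expression differs between body sites, above all in dermal fibroblasts, and Hoxc13 is required for the expression of hair keratins.

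Each genotype has 1 peak list for its 2 mice, so no difference between genotypes has a replicate check and no test was possible. Shares are given with 95% Wilson intervals, which cover counting error only. The lists held 68197 WT and 63548 dKO peaks. The pileup, which is the number of reads or fragments piled up at a peak's summit and was deposited without scaling for depth, had a median of 73 for WT and 38 for dKO. Around a peak the caller expects a local background, and its lowest value was 5.29 (WT) and 2.73 (dKO), which differ by a ratio of 1.94. Pileups of the lists are therefore set side by side and not compared. Among 12 markers of hair follicle stem cells, 12 had an open region. Of their 225 regions 147 were present in both lists, near the 66% of all regions assigned to a gene. Of the markers of other skin cells, the fibroblast list had a region at 5 of 6 genes, the melanocyte list at 3 of 5, the endothelial list at 5 of 5 and the immune list at 3 of 4. Lum, Tyr, Pmel and Lyz2 had no region in either list. An open region at a marker does not count cells, and a site open in fewer cells cannot be told apart from one that is less open in each cell.

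MicroRNA genes lie between the Hox genes, and their sequences are shown because they repeat across clusters as the Hox genes do. Mature sequences and positions are those of RefSeq on GRCm38.p6, the assembly that mm10 names, and capitals mark the seed at bases 2 to 8. The paired miRNAs of Hoxb and Hoxd share the seed ACCCUGU, and those of Hoxa, Hoxb and Hoxc share the seed AGGUAGU.
miR-10a-5p: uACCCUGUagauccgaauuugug
miR-10b-5p: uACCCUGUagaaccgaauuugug
miR-196a-5p: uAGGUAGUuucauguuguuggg
miR-196b-5p: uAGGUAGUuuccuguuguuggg
miR-615-3p: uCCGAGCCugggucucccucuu

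Mir10a in Hoxb lay 0.86 kb from the nearest WT peak and 0.89 kb from the nearest dKO peak, which was the same shared region at Hoxb4. Mir10b in Hoxd lay 0.75 kb and 0.71 kb from the shared region inside Hoxd4. Mir615 in Hoxc lay 0.08 kb and 0.07 kb from the strongest region of Hoxc5. These 3 miRNA genes of the low-numbered and middle stretches thus had an open region within 1 kb in both lists. The 3 genes with the AGGUAGU seed lie beside the group 9 genes and were further from a peak. Mir196a-1 in Hoxb was 3.38 kb from a WT peak and 4.2 kb from a dKO peak, and Mir196b in Hoxa was 2.32 kb and 3.82 kb away. The distances of Mir196a-2 in Hoxc were 3.13 kb to a WT peak and 8.05 kb to a dKO peak. In each of these 3 cases the nearest WT peak was WT-only.

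Promoter windows were available in the RefSeq table for 22 members with 24 start sites, each from 250 bases before to 50 bases after the start. Members without an entry are Hoxa4, Hoxb2, Hoxb3, Hoxb5, Hoxb6, Hoxb7, Hoxb9, Hoxb13, Hoxc5, Hoxc6, Hoxc8, Hoxc9, Hoxc10, Hoxc11, Hoxc12 and Hoxc13. The windows of 4 genes are shown with CpG dinucleotides in capitals, because they set a promoter with a peak in the WT list alone beside one with a peak in both lists and beside CpG-containing promoters without a peak. They are Hoxd10 (chr2:74691641-74691940, plus strand, WT list only), its neighbour Hoxd9 (chr2:74697513-74697812, plus strand, both lists), Hoxa13 (chr6:52260831-52261130, minus strand, neither list) and Hoxa11 (chr6:52245761-52246060, minus strand, neither list). Each is written 5′ to 3′ on the strand of its gene.
Hoxd10: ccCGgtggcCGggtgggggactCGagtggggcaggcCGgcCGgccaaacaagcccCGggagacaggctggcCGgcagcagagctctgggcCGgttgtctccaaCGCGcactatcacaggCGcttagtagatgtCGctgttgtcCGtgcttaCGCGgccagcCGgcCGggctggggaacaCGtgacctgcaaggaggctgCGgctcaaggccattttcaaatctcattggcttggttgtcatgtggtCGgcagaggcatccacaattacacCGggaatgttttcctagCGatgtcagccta
Hoxd9: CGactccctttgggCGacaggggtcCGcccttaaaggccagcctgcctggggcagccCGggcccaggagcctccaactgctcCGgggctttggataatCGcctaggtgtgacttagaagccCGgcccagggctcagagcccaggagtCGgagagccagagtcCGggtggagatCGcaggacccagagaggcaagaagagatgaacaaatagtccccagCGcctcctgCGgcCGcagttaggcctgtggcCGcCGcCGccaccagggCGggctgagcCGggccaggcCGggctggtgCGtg
Hoxa13: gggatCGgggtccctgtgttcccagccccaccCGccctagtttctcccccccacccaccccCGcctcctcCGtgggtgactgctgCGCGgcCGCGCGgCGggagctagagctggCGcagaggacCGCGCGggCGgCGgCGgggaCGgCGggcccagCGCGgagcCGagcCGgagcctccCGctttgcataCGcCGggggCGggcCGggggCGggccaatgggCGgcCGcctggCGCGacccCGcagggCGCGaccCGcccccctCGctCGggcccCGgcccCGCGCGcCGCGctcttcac
Hoxa11: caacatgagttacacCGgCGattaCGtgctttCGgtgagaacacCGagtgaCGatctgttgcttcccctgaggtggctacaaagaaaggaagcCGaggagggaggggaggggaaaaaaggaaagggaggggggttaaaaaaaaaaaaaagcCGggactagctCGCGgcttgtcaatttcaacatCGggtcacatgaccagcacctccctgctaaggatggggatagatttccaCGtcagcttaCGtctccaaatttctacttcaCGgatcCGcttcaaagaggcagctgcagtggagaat

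Hoxd10 had 22 CpG in its window and Hoxd9 had 20, so these neighbours were alike in CpG content. The Hoxd10 window overlapped a WT peak with a pileup of 20 and a fold enrichment over background of 2.9, and no dKO peak. At Hoxd9 the WT peak had a pileup of 65 and a fold of 6.2, and the dKO peak a pileup of 41 and a fold of 8.97. Hoxa13, a gene of the distal limb and genital tract, had 45 CpG, at the 97.7 percentile of the windows of protein-coding genes, and overlapped no peak. Hoxa11, a gene of the forearm and the uterus, had 15 CpG and no peak.

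Peaks of both lists were found at 8 of 24 Hox windows (33.3%, 18.0 to 53.3), against 55.5% of 21263 promoter windows of all protein-coding genes. The WT list alone had a peak at 1 window, that of Hoxd10 (4.17%, against 1.6% of all). The dKO list alone had a peak at 2 windows (8.33%, against 1.15% of all), the inner start of Hoxa10 and that of Hoxd13, and both lay at the edge of a region that held a peak of each list. Neither list had a peak at 13 windows (54.2%, 35.1 to 72.1), against 41.8% of all, a share inside that interval. By paralogue group, both lists had a peak at 5 of 8 windows of groups 1 to 4, 1 of 5 windows of groups 5 to 8 and 2 of 11 windows of groups 9 to 13. A window without a peak can lie beside an open region. The Hoxd8 window ends at 74704664 and its shared region starts at 74704688. The Hoxa7 window starts at 52218524 and its shared region ends at 52218450. The Hoxa13 window, shown above as one without a peak, starts at 52260831, and a WT-only region of pileup 38 ends at 52260498. The median number of CpG was 14.5 in Hox windows and 13 in all, 20 in Hox windows with peaks of both lists and 10 in those with none. The same medians over all genes were 22 and 3.

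Short motifs were searched on both strands of these windows, and a match is a description, not a binding site. The full palindrome of nuclear factor I, TTGGC and GCCAA with any 5 bases between them, was in 0 of 24 Hox windows and in 0.033% of all windows. Its single arm TTGGCA, which can overlap the palindrome, was in 3 Hox windows (12.5%), those of Hoxb1, Hoxd1 and the outer start of Hoxd11, and in 13.1% of all. The letters CCCTC, the core of the CTCF motif, were in 70.8% of Hox windows and 69.6% of all. The Hoxd1 window (chr2:74762730-74763029, plus strand) is shown because it has both a single arm, in capitals, and strong peaks of both lists.
Hoxd1: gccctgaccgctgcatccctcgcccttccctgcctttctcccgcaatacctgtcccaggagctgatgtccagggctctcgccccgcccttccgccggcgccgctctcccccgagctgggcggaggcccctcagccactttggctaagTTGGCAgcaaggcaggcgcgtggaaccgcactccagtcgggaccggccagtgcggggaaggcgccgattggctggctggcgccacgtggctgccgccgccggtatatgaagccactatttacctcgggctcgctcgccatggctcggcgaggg

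Hoxd1, the gene at the low-numbered end of the Hoxd cluster, had 1 region, and its WT peak had a pileup of 114 and a fold of 12.5. Its dKO peak had a pileup of 75 and a fold of 13.5. These folds were the highest of the Hoxd cluster in both lists.

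In total, 32 of 115 Hox regions were WT-only (27.8%, 20.5 to 36.6), against 21.2% of all regions assigned to a gene. The dKO list alone held 10 (8.70%, 4.79 to 15.3), against 12.9%. Both lists held 73 (63.5%, 54.4 to 71.7), against 66%. Each of these intervals includes the share over all genes, so over the 4 clusters together no departure from all genes was detectable with this number of regions. By cluster, Hoxc had 15 WT-only and 3 dKO-only of 40 regions, Hoxa 7 and 3 of 25, Hoxb 6 and 4 of 35, and Hoxd 4 and 0 of 15. Every cluster had more WT-only than dKO-only regions, but with lists of equal length Hoxa and Hoxb each had a difference of 0.

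Within the clusters, the single-genotype regions were unevenly placed. At the genes of paralogue groups 9 to 13, WT alone held 21 of 40 regions (52.5%, 37.5 to 67.1) and dKO alone held 0 (0 to 8.76). Groups 1 to 4 had 8 WT-only regions among 52 (15.4%, 8.01 to 27.5) beside 7 of dKO alone, and groups 5 to 8 had 3 among 23 (13.04%, 4.54 to 32.1) beside 3. The interval of groups 9 to 13 did not overlap those of the other groups or the 21.2% of all genes. WT-only regions made up 11 of 17 regions of groups 9 to 13 in Hoxc, 5 of 10 in Hoxa, 4 of 7 in Hoxd and 1 of 6 in Hoxb. The interval in Hoxb (3.01 to 56.4%) was too wide to tell it apart from the other clusters. With lists of equal length 12 of 31 regions of groups 9 to 13 (38.7%) were WT-only and 0 dKO-only. Groups 1 to 4 then had a WT-only share of 10.2% and groups 5 to 8 of 13.04%. The intervals above and the 21.2% are those of the full lists. The share over all genes at equal length is not given here. With peaks matched by summits within 200 bp, groups 9 to 13 had 3 dKO-only regions. Of 16 member genes in groups 9 to 13, 13 had a region and 11 had more WT-only than dKO-only regions, and none had more dKO-only regions. In groups 1 to 4 this was 1 of 11 genes, Hoxb3, and in groups 5 to 8 it was 2 of 11, Hoxb5 and Hoxc8, while Hoxa6 and Hoxb7 had 1 more dKO-only region each. The same count of genes over the genome is not given here. Over all assigned regions, too, WT-only regions outnumbered dKO-only ones (21.2% against 12.9%).

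**Figure D1:**
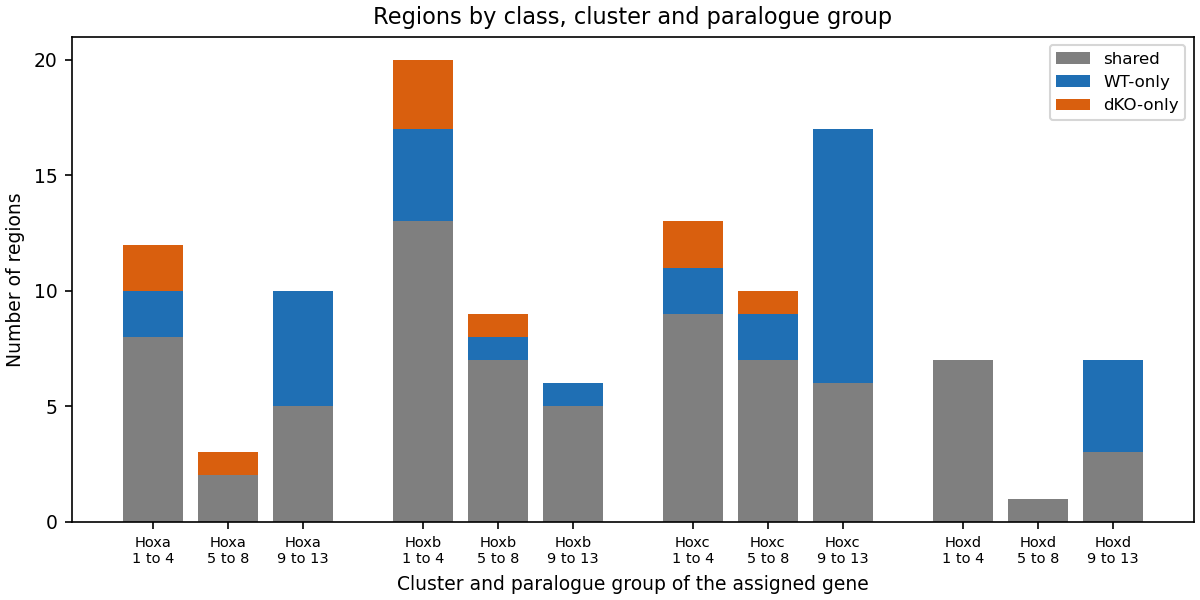
The bars count open regions by cluster and by the paralogue group of the assigned gene, with shared, WT-only and dKO-only regions stacked from 0. As a share of its bar, the WT-only part is largest in groups 9 to 13 of Hoxc (11 of 17 regions), Hoxd (4 of 7) and Hoxa (5 of 10), where no dKO-only part is seen. By count, Hoxb groups 1 to 4 also have 4 WT-only regions, of 20.

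Peak strength also differed between the groups. The median rank of WT peaks by deposited −log10 q was at the 23.2 percentile of the WT list in groups 9 to 13. It was at 43.6 in groups 1 to 4 and 55.2 in groups 5 to 8. The WT-only regions of groups 9 to 13 were weak peaks, with pileups from 16 to 52 and a median of 27. Their median rank was at the 15.5 percentile. The 8 WT-only regions of groups 1 to 4 were as weak by rank, with a median at the 13.6 percentile. The 3 of groups 5 to 8 ranked higher. Over all genes 13232 of 15030 WT-only regions had a WT peak in the weaker 50% of the list. Among Hox regions whose WT peak was in the weaker 50% of the WT list, 31 of 63 were WT-only (49.2%, 37.3 to 61.2), against 43.7% of such regions over all genes. In groups 9 to 13 this was 21 of 30 (70%, 52.1 to 83.3), in groups 1 to 4 it was 7 of 25 (28%, 14.3 to 47.6) and in groups 5 to 8 it was 3 of 8. In the weakest 20% of the WT list all 14 regions of groups 9 to 13 were WT-only (78.5 to 100%), against 58.2% over all genes. In the next 20% this was 6 of 10 (31.3 to 83.2%), an interval that includes the 38.8% over all genes. From the 40 to the 60 percentile it was 1 of 12 (8.33%, 1.49 to 35.4), below the 19.9% over all genes, which the interval also includes. In the stronger 50% of the WT list 1 of 42 Hox regions was WT-only (2.38%, against 5.71% over all genes), and it belonged to Hoxc4. In the weaker 50% of the dKO list 10 of 53 Hox regions were dKO-only (18.9%, 10.6 to 31.4, against 30.9%), and in the stronger 50% 0 of 30 were (0 to 11.4, against 2.69%).

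When each WT peak was scaled down to the background of the dKO list, 18 of the 21 WT-only regions of groups 9 to 13 passed the dKO list's lowest significance (85.7%). Over all WT-only regions 93.9% did. The scaling divides by a fixed ratio and adds no counting noise, so a peak that passed could still be missed at that depth. At the 6 fibroblast markers, 11 of 27 regions were WT-only (40.7%, 24.5 to 59.3, against 21.2% of all) and 1 was dKO-only (3.70%, 0.657 to 18.3, against 12.9%), among them 3 and 0 at Col1a1 and 4 and 0 at Col1a2. The other marker lists had WT-only and dKO-only regions in numbers of 10 and 5 of 40 for melanocytes, 10 and 8 of 40 for endothelium, 2 and 3 of 7 for immune cells and 41 and 37 of 225 for hair follicle stem cells. Fibroblasts express Hox genes by body site. The gate on integrin alpha 6 and CD34 was the same in both genotypes, and the YFP gate was set in dKO cells only. The part of fibroblasts, of the gate and of depth in the Hox result was not tested.

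**Figure D2:**
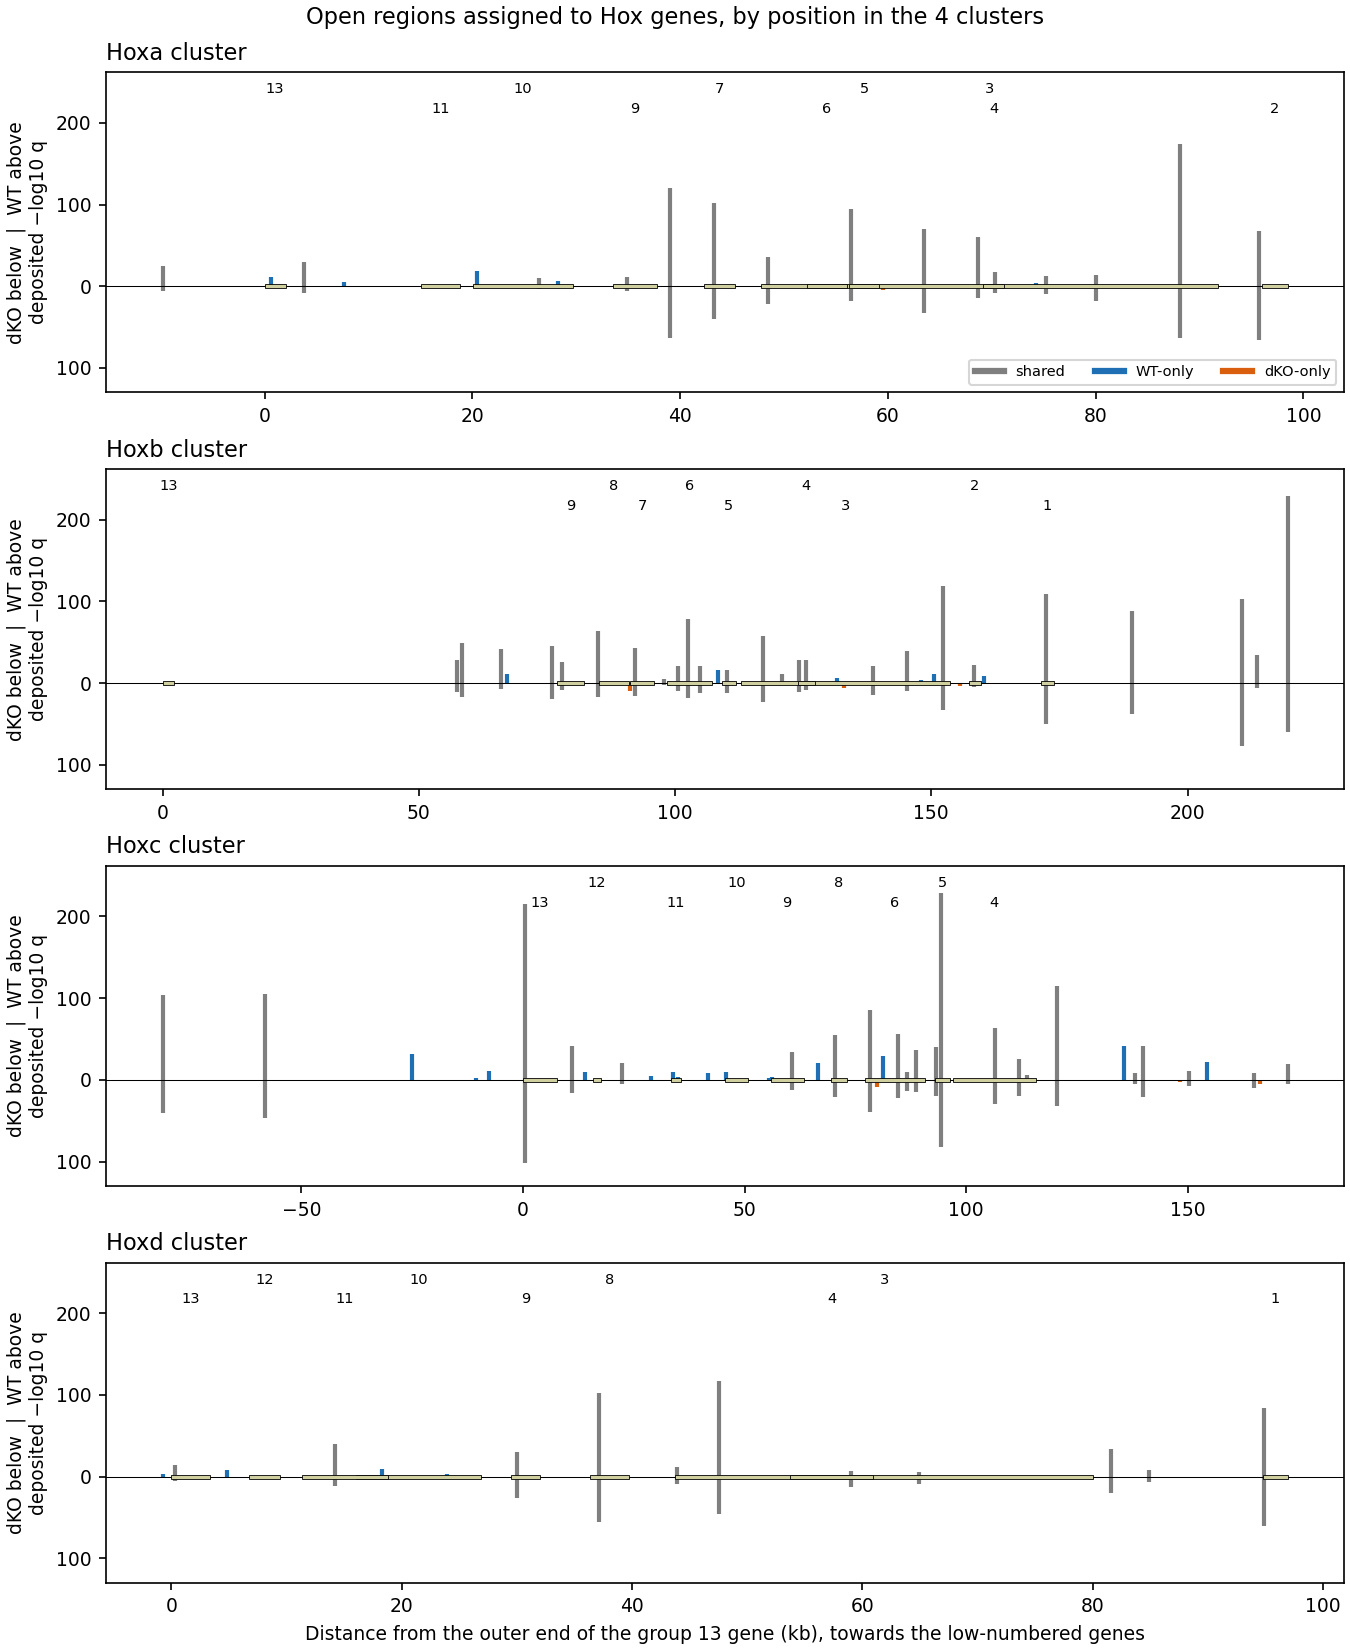
Each line is an open region, at its distance in kb from the outer end of the group 13 gene, with the deposited −log10 q of the WT peak above the axis and of the dKO peak below it. Boxes on the axis are the bodies of the member genes, with their paralogue numbers above. Blue WT-only lines are short and gather at groups 9 to 13 of Hoxa, Hoxc and Hoxd.

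In Hoxa, Hoxb and Hoxc the longest stretch without a dKO peak lay at groups 9 to 13. In Hoxc no dKO peak was found from 102943402 to 102981436 on chromosome 15, a stretch of 38.03 kb that contains the whole bodies of Hoxc10 and Hoxc11, genes of the lumbar and sacral levels of the axis. The WT list had 7 peaks there, with pileups of 18 to 29. In Hoxa the longest such stretch was 22.2 kb (52234959 to 52257156 on chromosome 6) around Hoxa11, with 3 WT peaks of pileup 17 to 42. In Hoxd a stretch of 15.1 kb around Hoxd10 (74682563 to 74697708 on chromosome 2) held 2 WT peaks with pileups of 20 and 38, and one of 13.3 kb around Hoxd12 held 1 WT peak with a pileup of 27. The longest stretch without a dKO peak in Hoxd, 15.6 kb inside and beyond Hoxd3, held no WT peak either. In Hoxb the longest stretch, 57.2 kb from Hoxb13 towards Hoxb9, had a peak in neither list. The 3 longest stretches without a WT peak in each cluster held 0 dKO peaks. Of 94 regions inside the spans 8 were dKO-only, and the WT list is the longer list. These stretches thus restate the single-genotype regions counted above. The same comparison over the genome is not given here.

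Coverage by peaks differed along the clusters too. Between the outer ends of its first and last member, each cluster was denser in open regions than gene bodies in general, which had 0.431 regions per 10 kb. Hoxa had 2.44 regions per 10 kb, Hoxc 2.16, Hoxb 1.78 and Hoxd 1.45 (exact Poisson 95% interval 0.79 to 2.42 for Hoxd). WT peaks covered 19.9% of the bases of Hoxa, 15.3% of Hoxc, 15.0% of Hoxb and 11.7% of Hoxd, and dKO peaks covered 15.9%, 11.5%, 10.6% and 8.66%. Over all protein-coding gene bodies these shares were 3.33% in WT and 2.80% in dKO. In the stretch of groups 9 to 13 the WT and dKO shares were 13.3% and 4.48% in Hoxa, 11.5% and 5.21% in Hoxc, and 14.6% and 6.25% in Hoxd. In the stretch of groups 5 to 8 they were 33.1% and 33.3% in Hoxa and 28.1% and 27.2% in Hoxc, so the lists covered it about equally there. In Hoxd, where this stretch is Hoxd8 alone, they were 33.0% and 43.1%. In Hoxb they were 26.6% and 15.9% in groups 5 to 8 and 22.03% and 17.1% over Hoxb9. Groups 1 to 4 had 22.5% and 22.3% in Hoxa, 20.2% and 15.4% in Hoxb, 13.9% and 14.1% in Hoxc, and 10.3% and 9.10% in Hoxd. The stretches of groups 1 to 4 and 5 to 8 of Hoxa overlap, because the body of Hoxa3 spans Hoxa4, Hoxa5 and Hoxa6.

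**Figure D3:**
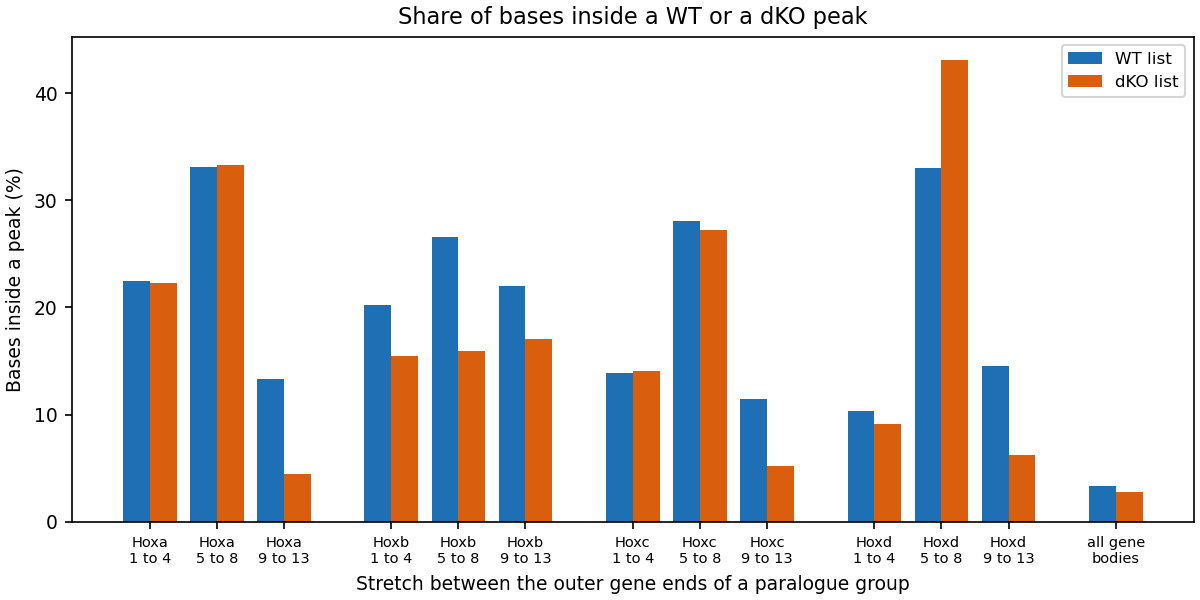
Bars give the percent of bases that lie inside a WT peak or a dKO peak, for the stretch between the outer gene ends of each paralogue group and, at the right, for all protein-coding gene bodies. In groups 9 to 13 of Hoxa, Hoxc and Hoxd the dKO bar is much the shorter (4.48% against 13.3% in Hoxa), while in groups 5 to 8 of Hoxa and Hoxc the bars differ by less than 1 percentage point. The Hoxb bar of groups 9 to 13 covers Hoxb9 alone. In groups 5 to 8 the dKO bar is the shorter in Hoxb and the longer in Hoxd, where it covers Hoxd8 alone.

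The local background also differed along the clusters in both lists. It is given as a multiple of the lowest background of its own list, and its median over all peaks was 1.82 in WT and 1.67 in dKO. At groups 5 to 8 the median multiple was 8.13 in WT and 5.07 in dKO, at the 89.6 and 85.2 percentile of all peaks. Groups 1 to 4 had 3.48 and 2.88, and groups 9 to 13 had 1.43 and 1.35, at the 42.4 and 42.1 percentile. The median background was thus higher in the middle of the clusters than at either end. The highest multiple was at Hoxa7, 13.7 in WT and 9.02 in dKO. Exceptions in groups 9 to 13 were the region beside Hoxa9 towards Hoxa7, with 11.1 and 7.13, the Hoxc13 gene end, with 8.21 and 5.02, and the region inside Hoxa9, with 5.58 and 3.88. Hoxd stayed low, with a median of 1.70 in WT and 1.64 in dKO over the cluster. A high background raises the pileup a peak needs to be called, and its part in the classes was not tested.

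**Figure D4:**
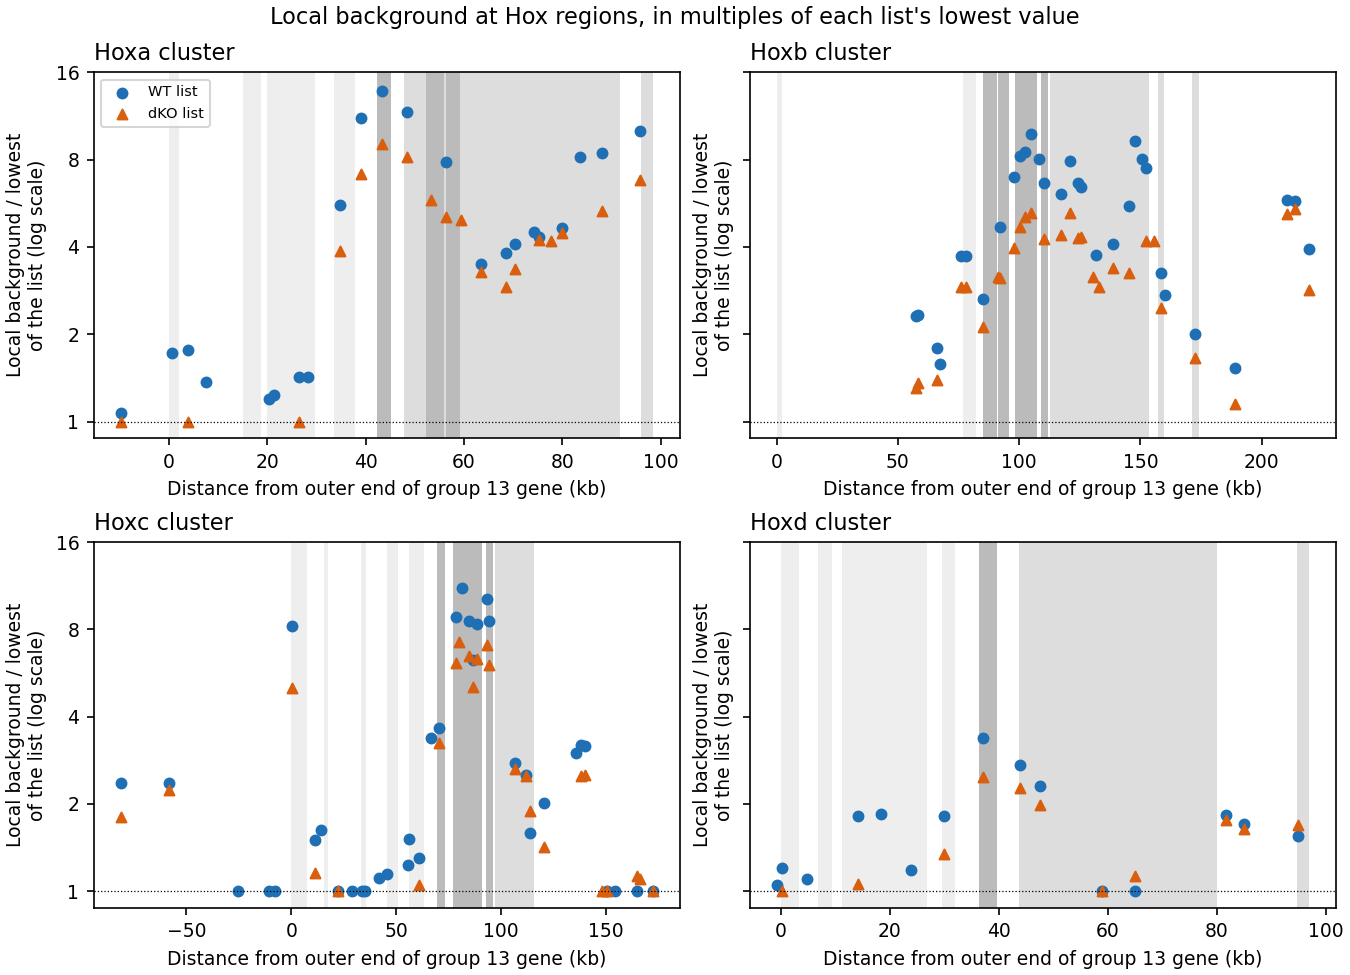
Points give the local background at each Hox region as a multiple of the lowest value of its list, on a log axis, against the distance in kb from the outer end of the group 13 gene. Grey bands are gene bodies, from light for groups 9 to 13 to dark for groups 5 to 8. WT and dKO points follow a like course, and the highest WT multiple of Hoxa (13.7), Hoxb (9.84) and Hoxc (11.1) lies at groups 5 to 8.

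By place relative to the genes, only gene ends had a WT-only share whose interval excluded that of all genes. Shares by place were not matched for peak strength. Of 33 Hox regions within 1 kb of a gene end, WT alone held 11 (33.3%, 19.8 to 50.4), against 6.27% of gene-end regions of all genes, and dKO alone held 2 (6.06%, against 3.51%). At groups 9 to 13 these were 9 and 0 of 13 regions (69.2% WT-only, 42.4 to 87.3), and at groups 1 to 8 the remaining 2 WT-only regions lay at Hoxb2 and Hoxb5. Inside gene bodies 9 of 44 Hox regions were WT-only (20.5%, 11.2 to 34.5, against 25.6%) and 5 dKO-only (11.4%, against 14.3%). Between genes 12 of 38 were WT-only (31.6%, 19.1 to 47.5, against 22.8%) and 3 dKO-only (7.89%, against 15.8%). Inside the cluster spans 26 of 94 regions were WT-only and 8 dKO-only, and in the flanks 6 and 2 of 21, which is a WT-only share of 27.7% inside and 28.6% outside.

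Hoxc13, which is expressed in the hair-forming cells and drives hair keratin genes, had 7 regions, 4 of them shared and 3 WT-only. Its gene end (102920396 to 102922754 on chromosome 15, 2359 bp) was open in both genotypes. The WT peak there had a pileup of 385, a fold of 8.69 and a −log10 q of 215.8, and the dKO peak had 156, 10.7 and 102.4, the highest −log10 q of any Hox peak in the dKO list. Of its other shared regions, those 58.15 kb and 81.35 kb out had WT pileups of 153 and 151 and dKO pileups of 70 and 60, with folds between 10.02 and 11.4. The fourth lay 3.45 kb from the gene, with pileups of 73 and 29. The WT-only regions lay between the gene and its far regions, 25.2 kb, 10.7 kb and 7.76 kb out, with pileups of 52, 16 and 28. Those with pileups of 52 and 28 passed after scaling to the dKO background, and the one of 16 did not.

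Towards the middle of Hoxc, Hoxc12 had 1 shared region (WT pileup 40, dKO 14) and 1 WT-only region (35). Hoxc11 had 3 WT-only regions with pileups of 19, 27 and 18 and no other, of which those of 27 and 18 lay within 1 kb of its gene ends. Hoxc10 had 2 WT-only regions with pileups of 26 and 29 and no other, the second at a gene end. Hoxc9, which sets thoracic motor neuron identity, had 2 WT-only regions at a gene end with pileups of 18 and 23 and 1 shared region inside its body, with 61 in WT and 23 in dKO. With peaks of a q value of 1e-05 or less alone, and also with lists of equal length, Hoxc9 had no WT-only region and Hoxc11 had 1.

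Hoxc8, Hoxc6, Hoxc5 and Hoxc4 were mainly shared. Hoxc8, a gene of the thoracic region and the mammary line, had a shared gene-end region of 2130 bp (WT pileup 124, dKO 52) and a WT-only region 2.91 kb away (73). Hoxc6 had 4 shared regions with WT pileups from 78 to 240 and dKO pileups from 53 to 98. It also had a dKO-only region of pileup 54 and, next to it, a WT-only region of pileup 168 at a fold of 2.83, where the local background was high in both lists. Hoxc5 held the region with the highest WT −log10 q of its cluster (103015064 to 103016009), with a WT pileup of 405, a fold of 8.76 and a −log10 q of 228.2, and dKO values of 147, 8.48 and 82.5, below those of the Hoxc13 gene end in the dKO list. Hoxc4, the last gene of the cluster, had 13 regions, the most of any member, 9 of them shared. Of its regions, 10 lay beyond the gene, up to 56.8 kb away. The strongest Hox WT-only peak was among them, 19.8 kb from the gene (103056425 to 103056814), with a pileup of 97 and a −log10 q of 40.9, and a second WT-only region 38.6 kb out had a pileup of 42. Its dKO-only regions had pileups of 11 and 16.

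In Hoxa, the genes of groups 10 to 13 had weak regions. Hoxa13 had 2 shared regions, with WT pileups of 64 and 47 and dKO pileups of 18 and 16, and 2 WT-only regions with 24 and 38, the second on its gene end. Hoxa11 had no region. Hoxa10, which acts in the uterus and the lumbar spine, had 1 shared region with a WT pileup of 33 and a dKO pileup of 12 and 3 WT-only regions with 27, 17 and 42. The one of 17 did not pass after scaling to the dKO background. Hoxa9, known for its role in blood stem cells, contrasted with these, since both of its regions were shared. The region 1.24 kb from it (52221387 to 52222326) had a WT pileup of 319 at a fold of 5.34 and a dKO pileup of 136 at 6.70, and the one inside the gene had 78 and 32.

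Hoxa7, Hoxa5, Hoxa4 and Hoxa2 had 1 shared region each. At Hoxa7 the WT pileup was 326 (fold 4.44) and the dKO pileup 120 (4.73). At Hoxa5, a gene of lung and thoracic development, they were 237 (5.62) and 60 (4.11), and at Hoxa4 they were 76 (3.39) and 35 (3.54). Hoxa2, which patterns the second pharyngeal arch, had 227 (fold 4.21) in WT and 136 (7.03) in dKO. Hoxa6 had a single dKO-only region, with a pileup of 37 at a fold of 2.26, which was not present at a q value of 1e-05 or less. Hoxa3, a gene of the pharyngeal arches and the thymus, had 10 regions over its long body: 6 shared, 2 WT-only (pileups 68 and 49) and 2 dKO-only (25 and 35). The strongest of them (52172418 to 52173203) had a WT pileup of 344 at a fold of 7.55 and a dKO pileup of 120 at 7.80. The widest, 2339 bp at the gene end beside Hoxa6 and Hoxa7, had 189 and 84.

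WT peaks covered 15.0% of the Hoxb span and dKO peaks 10.6%, and shared regions made up 25 of its 35 regions. Hoxb13, a gene of the prostate and the tail, had no region, and the 74.7 kb between it and Hoxb9 held 5 regions. Those 5 belonged to Hoxb9, which had 6 regions in all, 5 shared with WT pileups from 71 to 114 and dKO pileups from 20 to 48, and 1 WT-only (36). Hoxb8, Hoxb6 and Hoxb4 had shared regions alone, 1, 4 and 2 in number, with WT pileups from 71 to 224 and dKO pileups from 26 to 61. Hoxb7 had a shared region (123 and 44) and, close to it, the strongest Hox dKO-only peak (96285408 to 96285620), with a pileup of 35 and a −log10 q of 9.52. Hoxb5 had a shared region (98 and 47) and a WT-only one of pileup 111 at a fold of 2.58. Hoxb3 had 10 regions, 5 shared, 3 WT-only (48, 83 and 99) and 2 dKO-only (19 and 27). Hoxb2 had 1 of each class, with pileups of 75 and 22 in the shared region, 45 in the WT-only and 29 in the dKO-only region.

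Hoxb1, which sets the identity of a hindbrain segment in the embryo, had 5 regions, each of them shared. The one inside the gene had a WT pileup of 148 at a fold of 12.8 and a dKO pileup of 66 at 12.2. The other 4 lay beyond the cluster, 15.2 to 45.6 kb out. The farthest (96413209 to 96414445) had the highest −log10 q of any Hox peak in the WT list, 228.6, with a pileup of 302 at a fold of 13.9. In dKO the values were 90, 10.4 and 59.8. The low-numbered end of Hoxb thus carried strong peaks of both lists, whereas the Hoxb1 promoter window overlapped none.

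In Hoxd, the 8 regions of Hoxd1, Hoxd3, Hoxd4 and Hoxd8 were shared. Hoxd8 had a WT pileup of 172 (fold 9.21) and a dKO pileup of 82 (10.7). Hoxd3 had 5 shared regions with WT pileups from 22 to 162 and dKO pileups from 21 to 67. The region inside Hoxd4 had pileups of 23 and 24 at folds of 3.82 and 6.71. At the other end, Hoxd13, a gene of digit formation, had 1 shared region (36 and 15) and 2 WT-only regions (18 and 27). Hoxd12 had none. Hoxd11 had 1 shared region (76 and 22) and 1 WT-only (38), and Hoxd10 had 1 WT-only region (20), the one over its promoter. The 4 WT-only regions of the cluster passed after scaling to the dKO background. At a q value of 1e-05 or less, and also with lists of equal length, 2 WT-only regions of Hoxd were left.

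Outside the clusters, 2 lists of related genes had shares of WT-only and dKO-only regions whose intervals include the 21.2% and 12.9% of all assigned regions. The 10 known upstream regulators of Hox genes had 10 regions in the WT list alone, 10 in the dKO list alone and 37 in both, which is 17.5% for each single-genotype class (9.82 to 29.4). Rarb, a retinoic acid receptor, had 3, 7 and 18 and Kmt2a, a histone methyltransferase that keeps Hox genes active, had 0, 0 and 4. For the 10 genes that flank the clusters these numbers were 23, 14 and 60, or 23.7% WT-only (16.4 to 33.1) and 14.4% dKO-only (8.80 to 22.8). Among them the homeobox genes next to group 13, Evx2 beside Hoxd13 and Evx1 beside Hoxa13, had 3 WT-only and 0 dKO-only of 4 regions and 2 and 0 of 6. Hibadh had 6 and 0 of 16 and Mtx2 had 2 and 0 of 10, while Skap2 had 3 and 6 of 20 and Skap1 had 3 and 4 of 13. Of the 10 flanking genes, 5 had more WT-only and 3 had more dKO-only regions.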

How the data were processed

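The libraries of 2 WT and 2 dKO mice gave paired reads of 50 bp, per the labels. In the processing field, Bowtie2 2.2.9, Picard, MACS2 and the builds mm10 and GRCm38 are listed (per the submitters' processing notes) without role or order. Both mice of a genotype point to 1 peak list in the labels. The merging of the mice, any shift of reads for the transposase and the handling of duplicates were not given in the sources used here.

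As signal the authors deposited the pileup at the summit, a whole number of reads or fragments without depth scaling. Their fold is the ratio, per the file headers, of pileup to local background, and adding 1 to both gave its value. For the −log10 p and −log10 q of the authors the header cells were damaged. Both were recognised by their place and because a Poisson p computed from pileup and background came within 0.001 of the deposited −log10 p for 99.98% of 62811 WT and 99.997% of 62822 dKO peaks whose value was below 250. The lowest −log10 q was 1.3, a q value of 0.05.

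Mitochondrial peaks (5 WT, 3 dKO) were left out. Peaks that overlapped by 1 bp or more formed a region, which was WT-only, dKO-only or shared. A midpoint in several gene bodies went to the shortest. Gene bodies came from a RefSeq table of GRCm38.p6 with 21900 protein-coding genes and no strand or exons, so a gene end is either end of a body, within 1 kb. From pileup and fold the local background was recovered, and ranks are percentiles of −log10 q within a list. Joining and assignment were checked on simulated peaks. Python 3.11.15, numpy 2.4.6, pandas 2.3.3 and scipy 1.17.1 were used.

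The members, gene lists and groups were chosen with earlier results of these data known. All 38 members are accounted for. Those named by rule are Hoxc13, the 3 members with the most regions in each cluster, members with no region or a difference of at least 2, and those with the 5 strongest or widest peaks or the 5 strongest single-genotype peaks of a list. The other members are given too. Gene lists are described by counts, and the genes named from them were picked after their values were seen. The alternatives tried were joining at 50% of the shorter peak, joining by summits within 200 bp, keeping q values of 1e-05 or less, cutting the lists to equal length, assigning genes within 20 kb, assigning by each peak's own midpoint or by region edges, and gene ends within 2 kb. Scaling the WT pileups and backgrounds by the ratio of the lowest backgrounds was added after the data were seen. One entry of the flanking gene list, Prac1, did not match the gene table. One further gene list is not reported here.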

Additional observations from a re-analysis of the deposited data

How the results depend on the processing

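WT-only regions stayed more numerous than dKO-only regions over the 4 clusters under each alternative run, from 20 against 11 with lists of equal length to 47 against 27 with summits within 200 bp. At groups 9 to 13 the WT-only count ran from 12 to 24 and the dKO-only count from 0 to 3. Summits within 200 bp gave a shared share of 44.4%, a dKO-only share of 20.3% (25.8% in groups 1 to 4) and a WT-only minus dKO-only difference of 0 in Hoxb. A q value of 1e-05 or less gave a dKO-only share of 4.17% (4.55% in groups 1 to 4) and differences of 5 in Hoxb, against 2 as reported, and 2 in Hoxd, against 4. Lists of equal length gave a WT-only share of 19.4% in total, 19.0% inside the spans and 10.3% in gene bodies, with differences of 0 in Hoxa, 0 in Hoxb, 7 in Hoxc and 2 in Hoxd, against 4, 2, 12 and 4. Equal lengths shorten the WT list by its weakest peaks. Genes within 20 kb gave a WT-only share of 57.1% in the flanks, over 7 regions. Scaling WT to the dKO background gave a difference of 2 in Hoxa. The cause of the other shifts was not tested. Of all other alternative values, 174 for the clusters and groups and 279 for single members stayed inside the interval of the reported share or density or, for counts and differences, within 1.5 times, and 25 for single members did not. Some shares inside these wide intervals still moved by over 1.5 times. Summits within 200 bp gave WT-only shares of 25.8% in groups 1 to 4 and 25% in groups 5 to 8, and dKO-only shares of 28.6% in groups 5 to 8 and 6.98% in groups 9 to 13. Lists of equal length gave a WT-only share of 10.2% in groups 1 to 4. Joining at 50% of the shorter peak left the Hox class counts as reported, as did assigning by each peak's own midpoint or by region edges. Values of these settings are among the 174 and 279.

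No paired analysis was possible because each genotype has 1 peak list and no values per mouse, so no mouse could be left out either. An absent dKO peak is limited by the depth of that list. When scaled to its background, without added counting noise, 18 of the 21 WT-only regions of groups 9 to 13 passed (85.7%), against 93.9% of all WT-only regions. The part of depth was not tested. The intervals treat regions as independent, although neighbouring regions share a cluster.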
